A study of Penicillium oxalicum with 6 samples.

Results

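The 5 genes described here encode β-glucosidases of *Penicillium oxalicum*, and they are 5 of the 9834 genes measured in each library. They are *Bgl1* (*POX06835*), *POX00968*, *POX03062*, *POX03641* and *POX07963*, and all 5 were among the 8749 genes abundant enough to be tested. The members were chosen by their differential expression in the libraries described here, 4 for a lower and *POX07963* for a higher level in the mutant, so their differences between the strains are given as a description with no test. In the study's annotation, *Bgl1*, *POX00968*, *POX03641* and *POX07963* belong to glycoside hydrolase family GH3 and *POX03062* to family GH1.

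RNA was sequenced from 3 libraries of the mutant Δ*PoxMKK1* and 3 of its parent Δ*PoxKu70*, and the letters F, S and T name the replicates of each strain. In Δ*PoxMKK1* the gene *POX07948*, which encodes a mitogen-activated protein kinase kinase of the Ste7 type, had been exchanged for a G418-resistance gene. Both strains descend from the wild type HP7-1 and both carry a hygromycin-resistance gene in place of *POX01583*, the homologue of *Ku70*, which serves in the joining of broken DNA ends. About 1 g of mycelium from a glucose pre-culture of each strain was moved to medium with 2% Avicel, a microcrystalline cellulose, and harvested after 24 h, with no other time or carbon source in these libraries. A strain with *POX07948* put back was not analysed here.

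Cellulose is cut by endoglucanases and cellobiohydrolases into cellobiose and longer cellodextrins, and β-glucosidases split these into glucose. By removing cellobiose, which inhibits cellobiohydrolases, they also keep the earlier steps running. In *Trichoderma reesei* the main secreted β-glucosidase is a GH3 enzyme and a GH1 enzyme works inside the cell on cellodextrins that transporters have taken up. Where the 5 enzymes of *P. oxalicum* act is not given in the sources used here. The study's annotation lists the N-terminal and C-terminal GH3 domains and a fibronectin type III-like domain for all 4 GH3 members. It adds a PA14 domain for *POX03641*, and it lists the GH3 active-site signature for *Bgl1*, *POX03641* and *POX07963* but not for *POX00968*.

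The libraries held between 13687087 and 14042791 expected counts, which are estimated reads per gene. *POX07948* was listed at 0.08, 0.04 and 0.00 FPKM in the Δ*PoxMKK1* libraries, against 27.4, 25.0 and 32.3 FPKM in those of Δ*PoxKu70*, in the order F, S and T that is used below for both strains. FPKM scales the fragments of a gene to transcript length and sequencing depth, so it can be compared between genes. *POX01583*, described as replaced in both strains, was nevertheless listed at 55.4 to 62.8 FPKM in Δ*PoxMKK1* and 63.5 to 81.4 FPKM in Δ*PoxKu70*. The sources used here give actin under both *POX09428* and *POX09248*. *POX09428* averaged 2362 ± 59.2 FPKM in Δ*PoxMKK1* and 2510 ± 171 FPKM in Δ*PoxKu70*, and *POX09248* averaged 29.0 ± 2.43 FPKM in Δ*PoxMKK1* and 29.1 ± 1.38 FPKM in Δ*PoxKu70* (SD, n = 3 each). None of the 5 β-glucosidase genes had a fractional count in any library. Only 71 to 87 of the 9834 genes in a library had one, and a whole count does not exclude reads that fit another gene.

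A gene was called where edgeR's quasi-likelihood test gave an adjusted p (Benjamini-Hochberg) under 0.05 and the log2 fold change reached 1 in either direction. Of all tested genes 19.8% were called, 8.93% as lower and 10.8% as higher in Δ*PoxMKK1*. Of the β-glucosidase genes, 4 of 5 were called lower and 1 of 5 higher, which follows from how they were listed. Each of the 5 genes had all its Δ*PoxMKK1* values on one side of all its Δ*PoxKu70* values, as did 59.0% of all tested genes. The median log2 fold change was 0.01 over the tested genes.

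*Bgl1* shares its name with the main secreted β-glucosidase of *T. reesei*. Its FPKM was 41.5, 40.7 and 33.9 in Δ*PoxMKK1*, against 152.7, 131.6 and 113.4 in Δ*PoxKu70*. Every mutant library was below every parent library, and the lowest parent value was 2.73 times the highest mutant value. The mean was 38.7 ± 4.22 FPKM in Δ*PoxMKK1* and 132.6 ± 19.7 FPKM in Δ*PoxKu70* (SD, n = 3 each), which was 70.8% lower in the mutant. The log2 fold change was -1.84 with a standard error of 0.159. In mRNA of whole mycelium, fewer cells that express a gene and less of its mRNA per cell cannot be told apart, and this holds for all differences given here.

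*POX03641*, the GH3 gene with the PA14 domain, was the most abundant of the 5 in both strains. It had 127.5, 72.0 and 80.3 FPKM in Δ*PoxMKK1*, against 461.8, 435.1 and 296.8 FPKM in Δ*PoxKu70*. Replicate F of the mutant stood above the other 2 mutant libraries, and replicate T of the parent stood below the other 2 parent libraries, yet the strains remained 2.33-fold apart at their nearest values. The mean was 76.6% lower, at 93.3 ± 29.9 FPKM in Δ*PoxMKK1* and 397.9 ± 88.6 FPKM in Δ*PoxKu70* (SD, n = 3 each). Its log2 fold change of -2.16 (standard error 0.284) was the lowest of the 5.

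*POX00968*, the GH3 gene without the listed active-site signature, was the least abundant of the 5 in the mutant. It had 14.4, 17.0 and 18.5 FPKM in Δ*PoxMKK1*, against 66.5, 76.7 and 54.1 FPKM in Δ*PoxKu70*. The strains were further apart here than in any other lowered member, with the lowest parent value 2.93 times the highest mutant value. The mean was 16.6 ± 2.07 FPKM in Δ*PoxMKK1* and 65.7 ± 11.3 FPKM in Δ*PoxKu70* (SD, n = 3 each), a log2 fold change of -2.05 (standard error 0.169).

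*POX03062*, the GH1 member, had the smallest log2 fold change in size. It was at 65.0, 39.9 and 40.0 FPKM in Δ*PoxMKK1*, against 107.0, 101.3 and 94.7 FPKM in Δ*PoxKu70*. The parent libraries lay close together, whereas replicate F of the mutant lay between the other mutant libraries and the parent. The mean was 48.3 ± 14.5 FPKM in Δ*PoxMKK1* and 101.0 ± 6.13 FPKM in Δ*PoxKu70* (SD, n = 3 each), 52.2% lower in the mutant. With a log2 fold change of -1.13 (standard error 0.205) it was the member nearest to the fold minimum of 1. Leaving out replicate S of Δ*PoxMKK1* gave -1.01, and leaving out replicate F of that strain gave -1.40. Genes of families GH1 and GH3 outside the threshold are not annotated in the sources used here, so none is set beside it.

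*POX07963*, also GH3 and listed with the same domains as *Bgl1*, went the other way. It had 57.5, 44.7 and 44.5 FPKM in Δ*PoxMKK1*, against 11.9, 10.8 and 13.3 FPKM in Δ*PoxKu70*. The lowest mutant value was 3.34 times the highest parent value, the widest separation among the 5 genes. The mean was 48.9 ± 7.42 FPKM in Δ*PoxMKK1* and 12.01 ± 1.27 FPKM in Δ*PoxKu70* (SD, n = 3 each), 4.07 times as high in the mutant. The log2 fold change was 1.97 with a standard error of 0.137.

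**Figure D1:**
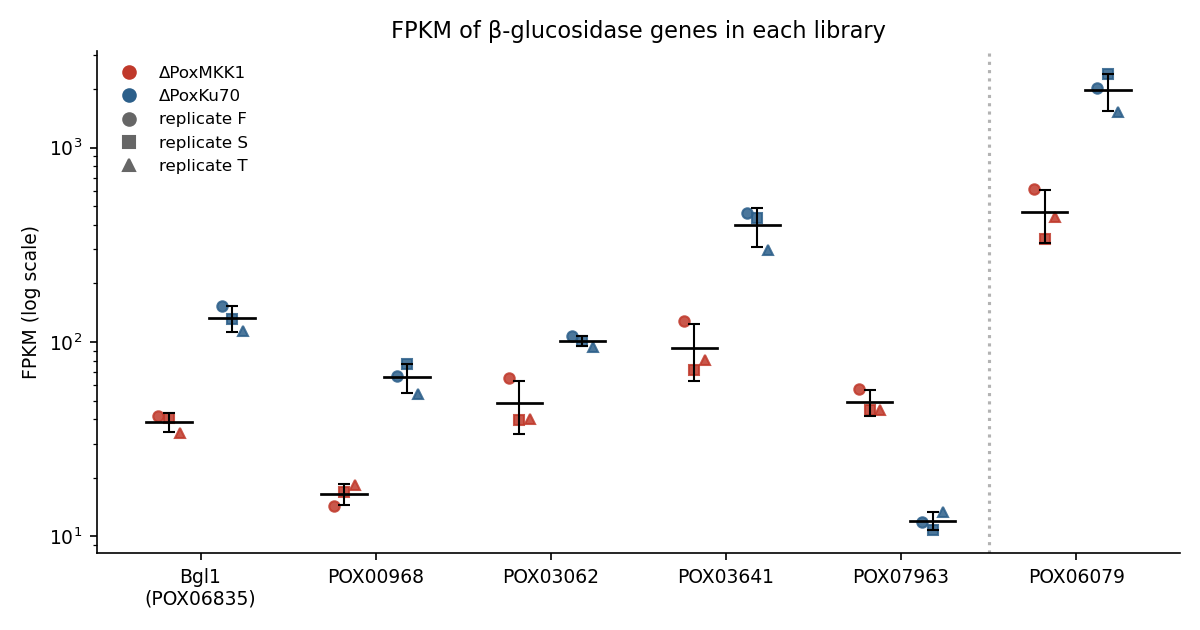
FPKM on a log axis for the 5 β-glucosidase genes and, right of the dotted line, for *POX06079*, with red Δ*PoxMKK1* libraries left of blue Δ*PoxKu70* libraries, a symbol per replicate, and bars for the mean and SD of 3 libraries. The strains do not overlap in any gene, and only *POX07963* is higher in Δ*PoxMKK1*, at 44.5 to 57.5 against 10.8 to 13.3 FPKM.

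The order of the levels also differed between the strains. In Δ*PoxMKK1* the mean FPKM decreased in the order *POX03641*, *POX07963*, *POX03062*, *Bgl1* and *POX00968*. *POX03062* could not be placed there relative to *POX07963* or *Bgl1*, because its values overlapped those of both, whereas *POX07963* was above *Bgl1* with no overlap. In Δ*PoxKu70* the order was *POX03641*, *Bgl1*, *POX03062*, *POX00968* and *POX07963*, and no neighbours in it overlapped, the closest being *Bgl1* with at least 113.4 FPKM and *POX03062* with at most 107.0 FPKM. Among all 9834 genes *POX07963* stood at percentile 68.8 of mean FPKM in Δ*PoxMKK1* and at percentile 34.7 in Δ*PoxKu70*, whereas *Bgl1* stood at percentile 62.3 in Δ*PoxMKK1* and 87.9 in Δ*PoxKu70*. Like *Bgl1*, the other lowered members held a lower place in the mutant. *POX03641* was at percentile 82.5 in Δ*PoxMKK1* and 95.4 in Δ*PoxKu70*. *POX00968* was at percentile 39.3 in Δ*PoxMKK1* and 76.8 in Δ*PoxKu70*, and *POX03062* at 68.4 in Δ*PoxMKK1* and 84.4 in Δ*PoxKu70*.

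A change in order also shows in ratios taken within a library, which do not depend on the depth of the libraries. *POX07963* had 1.38, 1.10 and 1.32 times the FPKM of *Bgl1* in Δ*PoxMKK1*, against 0.078, 0.082 and 0.118 times in Δ*PoxKu70*. So *POX07963* was above *Bgl1* in 3 of 3 mutant libraries and below it in 3 of 3 parent libraries. The ratio of *POX03641* to *Bgl1* was 3.07, 1.77 and 2.37 in Δ*PoxMKK1*, against 3.02, 3.31 and 2.62 in Δ*PoxKu70*, and these values overlapped.

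Summed over the 5 genes, the FPKM was 305.8, 214.2 and 217.2 in Δ*PoxMKK1*, against 799.9, 755.4 and 572.3 in Δ*PoxKu70*. The mean sum of Δ*PoxMKK1*, 245.7 ± 52.0 FPKM, was 34.7% of the 709.2 ± 121 FPKM of Δ*PoxKu70* (SD, n = 3 each). In absolute terms the difference of *POX03641*, at -304.6 FPKM, was the largest, followed by *Bgl1* at -93.9, *POX03062* at -52.7 and *POX00968* at -49.1 FPKM, while *POX07963* differed by 36.9 FPKM in the other direction. *POX07963* made up 20.1 ± 1.11% of the sum in Δ*PoxMKK1* and 1.75 ± 0.503% in Δ*PoxKu70*, and *POX03641* made up 37.4 ± 4.06% in Δ*PoxMKK1* and 55.7 ± 3.35% in Δ*PoxKu70* (SD, n = 3 each). The shares of *Bgl1*, 16.1 ± 2.76% in Δ*PoxMKK1* and 18.8 ± 1.23% in Δ*PoxKu70*, overlapped between the strains.

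**Figure D2:**
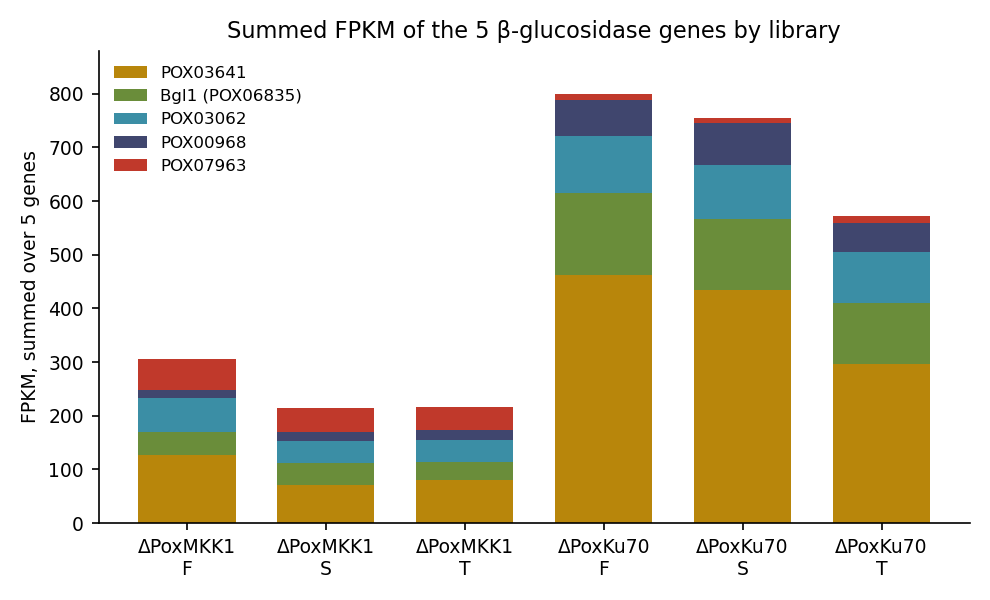
FPKM of the 5 β-glucosidase genes stacked for each library, with the 3 Δ*PoxMKK1* libraries on the left and the 3 Δ*PoxKu70* libraries on the right. The sums are 214.2 to 305.8 in Δ*PoxMKK1* and 572.3 to 799.9 in Δ*PoxKu70*, and *POX07963* (red, top) takes about 20.1% of the mutant sum.

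The 5 genes are not all β-glucosidase genes of the study's list. *POX06079*, a GH1 gene annotated there as a β-glucosidase, exceeded each of them in every library, with 615.4, 336.8 and 441.5 FPKM in Δ*PoxMKK1*, against 2022, 2377 and 1524 FPKM in Δ*PoxKu70*. Its log2 fold change of -2.15 (standard error 0.285) was close to that of *POX03641*. With it the summed FPKM was 710.3 ± 190 in Δ*PoxMKK1* and 2684 ± 532 in Δ*PoxKu70* (SD, n = 3 each), and *POX06079* alone held 65.0 ± 3.35% of that sum in Δ*PoxMKK1* and 73.4 ± 2.21% in Δ*PoxKu70*. *POX03062*, the other GH1 gene, stood at -1.13 (standard error 0.205), and the difference between these fold changes was not tested. *POX01646*, a GH3 gene annotated as a β-xylosidase, which releases xylose from xylan fragments, was at 13.7 ± 3.55 FPKM in Δ*PoxMKK1* and 40.7 ± 5.05 FPKM in Δ*PoxKu70* (SD, n = 3 each). *POX06079* and *POX01646* were likewise listed by the study on these libraries. *POX00923* is called a β-glucosidase gene in the paper's text and a β-xylosidase gene of family GH43 in its annotation, so it was kept out of the sums. It had 57.6, 51.2 and 76.5 FPKM in Δ*PoxMKK1*, against 2.2, 0.8 and 4.6 FPKM in Δ*PoxKu70*.

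Within a strain the genes did not vary alike. In Δ*PoxKu70*, replicate T was the lowest of the 3 libraries for *Bgl1*, *POX00968*, *POX03062* and *POX03641*, and also for *POX06079*, while for *POX07963* it was the highest. In Δ*PoxMKK1*, replicate F was the highest for *Bgl1*, *POX03062*, *POX03641* and *POX07963*, while for *POX00968* it was the lowest. The highest parent library exceeded the lowest by 1.13-fold for *POX03062* and by 1.56-fold for *POX03641*, and the mutant libraries spread by 1.23-fold for *Bgl1* and by 1.77-fold for *POX03641*. In Δ*PoxMKK1* the coefficients of variation of the 5 genes were between 10.9% for *Bgl1* and 32.1% for *POX03641*, all above the median of 8.38% over the 7025 tested genes whose mean FPKM was 10 or more. In Δ*PoxKu70* the coefficients of variation of the 5 genes were between 6.07 and 22.3%, against a median of 11.8%.

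The genes most like each member in their pattern were found by the root mean square difference of log2 CPM, centred on each gene's mean over the 6 libraries, among those 7025 genes. CPM is a count scaled to the size of its library, here after TMM, edgeR's trimmed mean of M-values. This centring keeps the strain difference for which the members were chosen, so near genes are largely those with a like fold change. The distances are therefore a description only. Nearest to *Bgl1* were *POX08780*, *POX02691* and *POX07408*, at 0.088, 0.105 and 0.112 log2 units, against a median of 0.953 over all genes compared. Nearest to *POX03641* were the endoglucanase gene *Cel5B* (*POX01166*) at 0.0999, *POX06079* at 0.119 and the lytic polysaccharide monooxygenase gene *POX02308* at 0.121. Endoglucanases cut inside cellulose chains, and lytic polysaccharide monooxygenases cleave them by oxidation. *POX00968* was nearest to *POX02231*, *POX02831* and *POX02830*, with distances from 0.0991 to 0.106. *POX03062* was nearest to *POX02111* at 0.0726, then to *POX08390* and *POX00158*. *POX07963* was nearest to *POX03956*, *POX01862* and *POX02080*, at 0.0863, 0.112 and 0.133. None of the 5 genes was among the 3 nearest of another. The closest pair of members was *Bgl1* and *POX00968* at 0.249, and the GH1 pair *POX03062* and *POX06079* was 0.539 apart.

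**Figure D3:**
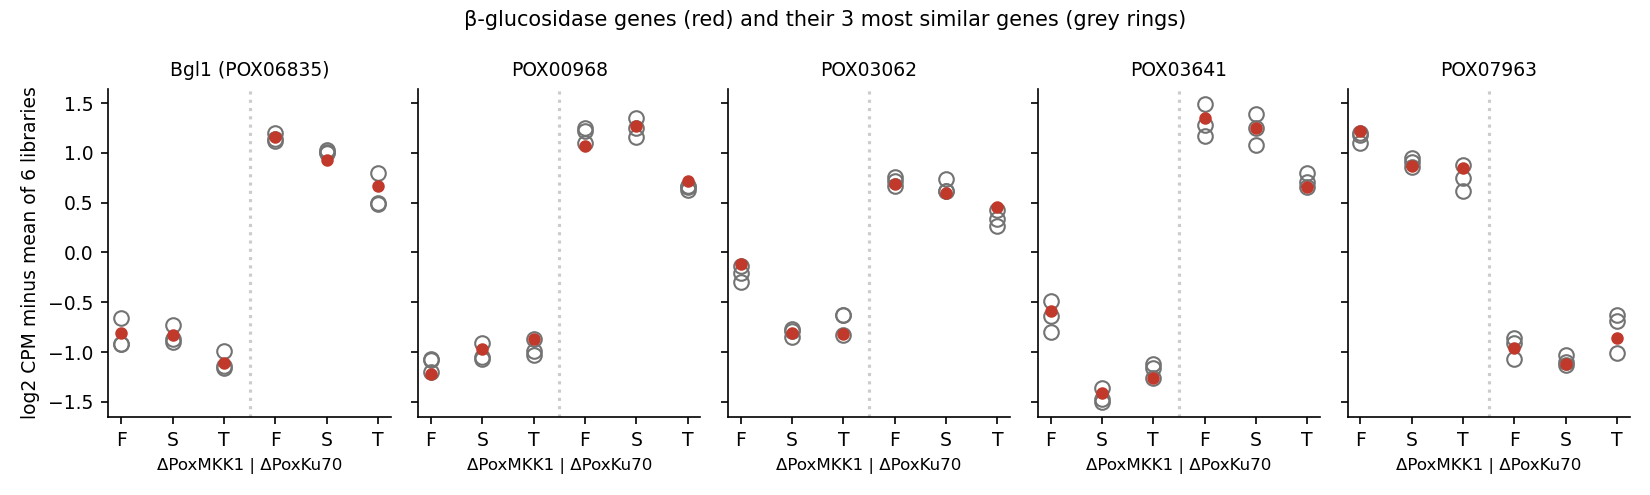
Log2 CPM minus the gene's mean over the 6 libraries, for each β-glucosidase gene (red dots) and its 3 most similar genes (grey rings), with the Δ*PoxMKK1* libraries F, S and T left of the dotted line and those of Δ*PoxKu70* right of it. *POX07963* is above its mean in the mutant libraries, the other 4 genes are below theirs, and replicate F of Δ*PoxMKK1* stands up for *POX03062* and *POX03641*.

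The enzymes that act before the β-glucosidases were taken as a list of 10 genes: the cellobiohydrolase gene *cbh2*, 7 endoglucanase genes and 2 genes of lytic polysaccharide monooxygenases. All 10 were called lower, with a median log2 fold change of -1.96, against 0.01 over all tested genes, but the study picked them from these libraries as lowered, so the count is no independent evidence of a direction. The call of *Cel5A* was lost without replicate S of Δ*PoxMKK1*. The summed FPKM of the 10 genes was 3527 ± 965 in Δ*PoxMKK1* and 10930 ± 1815 in Δ*PoxKu70* (SD, n = 3 each). Set against this sum, the 5 β-glucosidase genes stood at 6.74, 8.19 and 6.34% in Δ*PoxMKK1*, against 6.51, 6.49 and 6.45% in Δ*PoxKu70*, and the values of the strains overlapped. This overlap covers only the 5 genes without the more abundant *POX06079*. With *POX06079* added to them, the percentage was lower in every mutant library than in every parent library. The mean sum of the 10 genes in Δ*PoxMKK1* was 32.3% of that in Δ*PoxKu70*. For the 5 β-glucosidase genes it was 34.7%, and with *POX06079* added it was 26.5%.

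Uptake of cellodextrins precedes their cleavage inside the cell. The cellodextrin transporter genes *PoxCdtC* and *PoxCdtD* were called lower, with log2 fold changes of -1.95 and -2.26 and adjusted p of 0.00131 and 4.28e-04 by edgeR. *PoxRCO-3*, named after a glucose sensor of *Neurospora crassa*, was called higher, at 3.95 with an adjusted p of 0.00953 by edgeR. Its value depended on replicate T of Δ*PoxKu70*, without which it was 5.64. These 3 genes were likewise named by the study for their difference in these libraries.

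Of 10 regulator genes taken from the paper and its primer list, 3 were called lower, 2 were called higher and 5 were not called, with a median log2 fold change of 0.12, against 0.01 over all tested genes. *PoxClrB*, which encodes an activator of cellulase genes, was at 40.6, 31.7 and 32.3 FPKM in Δ*PoxMKK1*, against 100.6, 91.8 and 71.5 FPKM in Δ*PoxKu70* (log2 fold change -1.40, adjusted p = 7.86e-04 by edgeR). All but *PoxClrC* and *PoxAmyR* were named by the study for their difference in these libraries, so the counts are no independent evidence. The other lowered regulators were *PoxCxrB*, an activator of cellulase and xylanase genes, at -1.97 and *POX01118* at -1.51. The called rises were in *POX09124*, at 2.48, and in *PoxRfxA*, at 1.07, whose call was lost without replicate F of Δ*PoxKu70*. The amylase regulator gene *PoxAmyR* had a log2 fold change of -0.11 and *PoxClrC* of -0.58, neither called by edgeR (adjusted p 0.475 and 0.150), and *PoxClrC* was called once replicate T of Δ*PoxMKK1* was left out. *PoxPacC*, at 0.95, lay under the fold minimum and passed it when either replicate F of Δ*PoxMKK1* or, in turn, replicate S of Δ*PoxKu70* was left out.

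**Figure D4:**
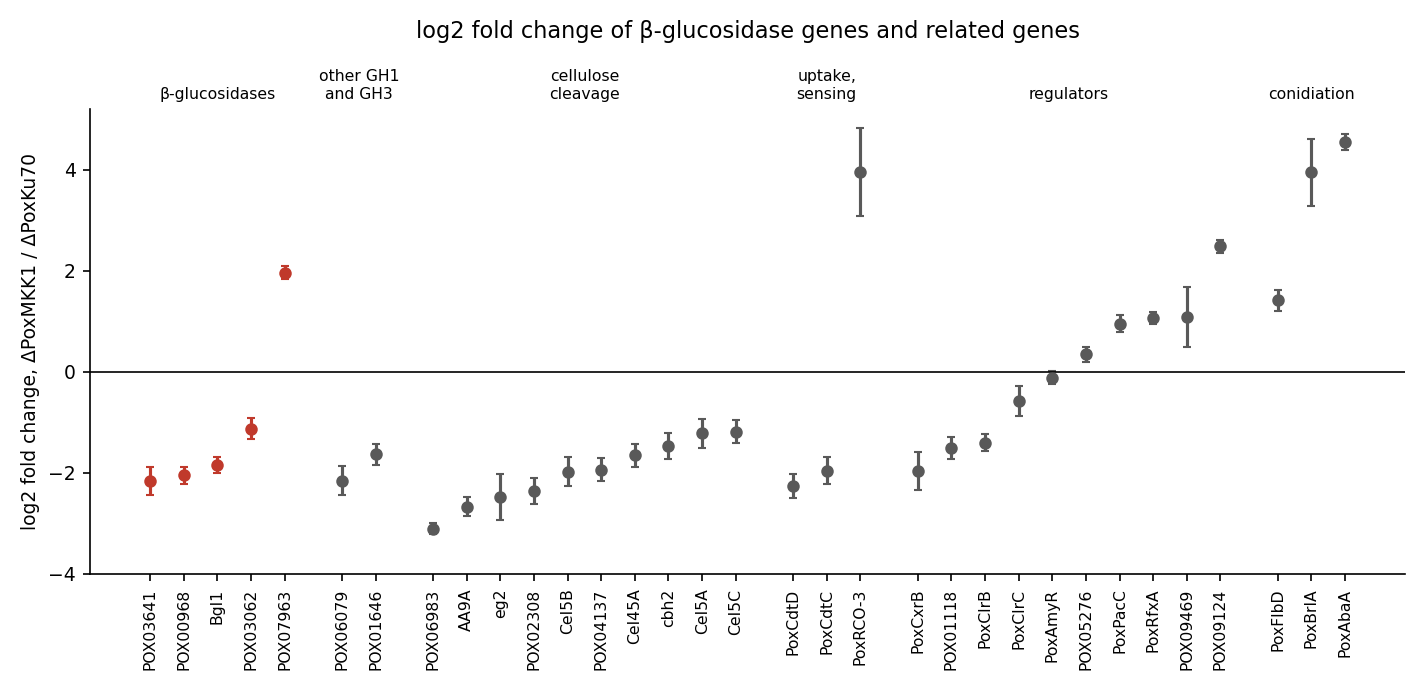
Log2 fold change of Δ*PoxMKK1* over Δ*PoxKu70* from edgeR's fit for the β-glucosidase genes (red) and for related genes (grey), grouped by role, with bars of 1 standard error. The β-glucosidase genes run from -2.16 for *POX03641* to 1.97 for *POX07963*, and all 10 cellulose cleavage genes are below 0.

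Markers of conidiation, the formation of asexual spores, moved with the strains as well. The study named 3 such genes for their difference in these libraries. All 3 conidiation regulator genes, *PoxBrlA*, *PoxAbaA* and *PoxFlbD*, were called higher, with log2 fold changes from 1.42 to 4.55, and none of the 3 was at 0 in any library. Their summed FPKM ranged from 915.3 to 996.0 in Δ*PoxMKK1* and from 126.5 to 256.3 in Δ*PoxKu70*. Most of the sum in Δ*PoxKu70* came from *PoxFlbD*, at 165.4, 117.3 and 210.7 FPKM. *PoxBrlA* varied widely there, at 29.4, 5.38 and 42.2 FPKM. The part of the 3 conidiation genes in the differences of the β-glucosidase genes was not tested.

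*POX07963* carries an identifier 15 numbers after that of the deleted gene *POX07948*. Whether the numbers follow the genome is not given in the sources used here, so genes with near numbers are called neighbours by identifier only. Of the 14 genes numbered between them, 3 were called, all lower, which is 21.4% against 19.8% of all tested genes, and *POX07952* was called higher once replicate F of Δ*PoxKu70* was left out. The 3 called lower were *POX07949*, *POX07961* and *POX07962*, with log2 fold changes of -1.85 (standard error 0.126), -1.42 (0.308) and -1.52 (0.112). Their adjusted p by edgeR was 7.55e-05, 0.00899 and 9.97e-05. *POX07961* was low in both strains, at 1.12 ± 0.430 FPKM in Δ*PoxMKK1* and 2.90 ± 0.398 FPKM in Δ*PoxKu70* (SD, n = 3 each). *POX07962*, the number before *POX07963*, was at 106.0 ± 5.24 FPKM in Δ*PoxMKK1* and 290.6 ± 27.5 FPKM in Δ*PoxKu70* (SD, n = 3 each), so it differed in the opposite direction. *POX07964*, the number after *POX07963*, had a log2 fold change of -0.24 (adjusted p = 0.227 by edgeR). Of the 10 genes within 5 numbers of *POX07963* none was called higher, against 10.8% of all tested genes. At that share few or none would be called among 10 genes, so the count does not set *POX07963* apart.

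**Figure D5:**
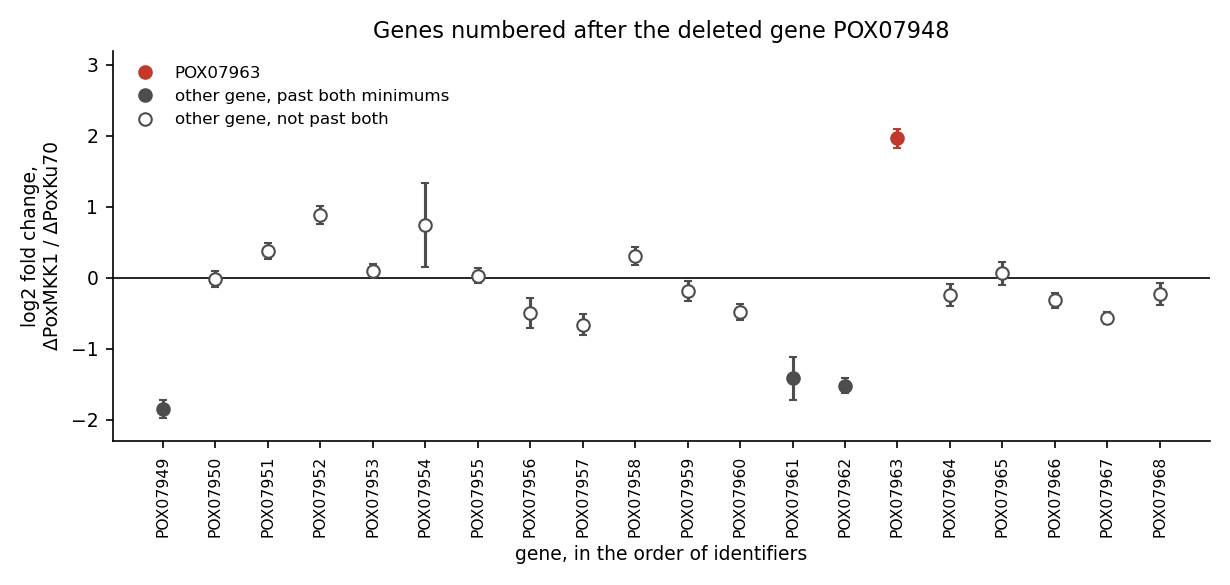
Log2 fold change of Δ*PoxMKK1* over Δ*PoxKu70* for the 20 genes numbered after *POX07948*, in the order of their identifiers, with bars of 1 standard error and filled symbols for genes past both the adjusted p and the fold minimum. *POX07963* (red) stands at 1.97, and the other filled symbols lie between -1.85 and -1.42.

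Around all 5 genes there were 50 neighbours within 5 numbers, of which 43 were tested and 9 were called, 6 higher and 3 lower. That is 20.9% of those tested, near the 19.8% of all tested genes. Within 5 numbers of *Bgl1*, 2 genes were called, *POX06830* at 2.27 and *POX06833* at 2.62, both higher. Both were low in Δ*PoxKu70*, at a mean of 1.37 and 1.12 FPKM, against 6.99 and 7.30 FPKM in Δ*PoxMKK1*. Near *POX00968*, *POX00970* had 30.4 ± 4.52 FPKM in Δ*PoxMKK1* and 0.0633 ± 0.0651 FPKM in Δ*PoxKu70* (SD, n = 3 each). *POX00967* was called lower, at -1.58, and its call was lost when any one of replicates F and S of Δ*PoxMKK1* and T of Δ*PoxKu70* was left out. *POX03060*, near *POX03062*, was called higher at 1.37, and *POX03638* and *POX03645*, near *POX03641*, were called higher at 2.28 and 5.04. Neighbours called lower were thus found only for *POX07963* and *POX00968*. With 3 called lower among the 43 tested, against 8.93% of all tested genes, this sets neither gene apart. Genes that missed the fold minimum are not counted here.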

How the data were processed

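Mycelial mRNA of 3 Δ*PoxMKK1* and 3 Δ*PoxKu70* libraries, described in the paper as biological repeats, was sequenced on the BGISEQ-500 platform. The files deposited by the authors give, for 9834 genes, an expected count (not normalized) and an FPKM value. The submitters' processing notes name RSEM 1.2.12, Bowtie2 2.1.0, BWA 0.7.10-r789 and DESeq2 without saying what each did. No source used here states the annotation version or whether counting used strand, so overlapping genes are uncertain. The RefSeq table of the HP7-1 assembly matched 0 of the identifiers, so no position or sequence is printed.

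Expected counts were rounded and fitted in edgeR 4.0.16 (R 4.3.3; filterByExpr, TMM, glmQLFit, glmQLFTest) with no block, over 6 libraries and 8749 genes, and the step was checked on simulated counts. The paper gives a probability in place of the adjusted p used here. A standard error is the absolute log2 fold change divided by the square root of F. Summaries and plots used Python 3.11.15, numpy 2.4.6, pandas 2.3.3 and matplotlib 3.10.9. The alternatives were DESeq2 1.42.0, limma 3.58.1 on log2(FPKM + 0.5), other scalings, filters, thresholds and windows, a replicate block and each library left out. Members and lists were chosen with earlier results of these data known. Named genes are the members, the other GH1 and GH3 genes of the study's list, the listed pathway genes, 3 nearest patterns per member and called neighbours.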

Additional observations from a re-analysis of the deposited data

How the results depend on the processing

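The log2 fold changes of the 5 β-glucosidase genes were recomputed under 80 combinations of gene and alternative, and all 80 kept their direction and moved by less than 1 SD between replicates. The 5 genes were chosen for this difference and did not overlap between the strains, so leaving out a library could hardly change a direction. The 80 values are therefore a description and no independent support. With each library left out in turn the log2 fold changes ranged from -1.97 to -1.72 for *Bgl1*, -2.20 to -1.92 for *POX00968*, -1.40 to -1.01 for *POX03062*, -2.45 to -2.01 for *POX03641* and 1.83 to 2.03 for *POX07963*. On the log2 ratio of mean FPKM, *POX03062* was at -1.06, and relative to *POX09428*, one of the identifiers given for actin, at -0.97. The log2 ratio of the summed FPKM was -1.53 and became -1.92 with *POX06079* added, since that gene outweighs the other 5. The 1728 called genes became 4044 with no fold minimum, which removes a criterion, and lay between 1408 and 1865 under the other alternatives. With a replicate block 1739 genes and 18 of the 23 pathway and regulator genes were called, against 1728 and 18 without it. Whether the letters F, S and T pair the libraries was not settled by the correlations of deviations from the strain means. Those of the same letter were 0.336, 0.032 and 0.127, and those of unlike letters ranged from -0.384 to 0.173. Replicates F and S of Δ*PoxMKK1* correlated best with their own letter, whereas replicate T correlated best with replicate S of Δ*PoxKu70* (0.173). Of the 47 called genes named beside the members or plotted with them, none lost its call under DESeq2 or the block, and 1 lost it under limma. That gene was *POX08390*, one of the 3 nearest to *POX03062*, with a log2 fold change of -1.02. Its call was also lost in 4 of the fits with 1 library left out. With 3 libraries per strain and *POX07963* at 408 to 496 counts in Δ*PoxKu70*, the spread between libraries, not counting, limits the precision.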
